A study of Arabidopsis thaliana with 18 samples.

Results

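The genes described here are the Aux/IAA and ARF families of Arabidopsis thaliana, 44 of the 33602 loci in the deposited tables. They are defined by locus identifier, as 29 Aux/IAA genes (IAA1 to IAA20 and IAA26 to IAA34) and 15 ARF genes (ARF1 to ARF11 and ARF16 to ARF19). Poly(A) RNA was sequenced from whole seedlings of 3 genotypes: ahl10-1 (line Salk_073165), rrp6l1-2 (line Salk_027601) and the wild type (WT, Col-0). Each mutant is 1 insertion line, so an effect of the gene cannot be told apart from an effect of that line. All seedlings grew on vertical agar plates without sugar, in continuous light at 23 °C, and were moved at 7 days. Stress plates held the same medium with polyethylene glycol, a polymer too large to enter cells, at a water potential of -0.7 MPa. Control seedlings were kept at -0.25 MPa. Seedlings were harvested 96 h after transfer, at 11 days. The 6 groups have 3 libraries each, described as independent experiments, with 57996104 to 68555138 reads per library.

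Auxin acts on transcription through these families. ARF proteins bind DNA at auxin-responsive genes, and Aux/IAA proteins bind ARFs and recruit co-repressors of the TOPLESS group, which keeps the genes silent. Auxin joins an Aux/IAA to a receptor of the TIR1/AFB group, and the Aux/IAA is then marked for degradation. Many Aux/IAA genes are themselves induced by auxin, so their products form a negative feedback loop. Several Aux/IAA genes are also read as markers of a tissue or growth process in seedlings, such as hypocotyl bending, root growth or lateral root formation.

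The receptor holds Aux/IAA proteins by a short degron. Its core, glycine-tryptophan-proline-proline, was searched for as in-frame GGNTGGCCNCCN codons in the TAIR10.1 coding sequences. It was present in 23 of the 29 Aux/IAA genes and absent in IAA20, IAA30, IAA31, IAA32, IAA33 and IAA34. The stretches of IAA6, IAA19, IAA3 and IAA28 are shown, with the core in capitals, because IAA6, IAA19 and IAA3 had the largest falls among genes called in all 3 genotypes and IAA28 rose. They cover chr1:19673320-19673355 (minus strand), chr3:5264304-5264339 (plus), chr1:1129016-1129051 (minus) and chr5:9033809-9033844 (plus), each inside 1 exon.
IAA6: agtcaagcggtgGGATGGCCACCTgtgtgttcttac
IAA19: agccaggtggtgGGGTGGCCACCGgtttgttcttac
IAA3: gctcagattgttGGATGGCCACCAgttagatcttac
IAA28: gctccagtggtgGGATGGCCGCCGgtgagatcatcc
The core codons are thus present in genes that fell and in one that rose.

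IAA6 and IAA19 showed the largest falls of the genes called in all 3 genotypes, and the 250 bases before their gene starts are shown for that reason. Capitals mark TGTCTC, the auxin response element described for ARF binding, and CACGTG, the G-box bound by light and stress factors of the bHLH and bZIP classes. The windows are chr1:19673653-19673902 (minus strand) and chr3:5263751-5264000 (plus strand) of TAIR10.1, and end at the base before the annotated start.
IAA6: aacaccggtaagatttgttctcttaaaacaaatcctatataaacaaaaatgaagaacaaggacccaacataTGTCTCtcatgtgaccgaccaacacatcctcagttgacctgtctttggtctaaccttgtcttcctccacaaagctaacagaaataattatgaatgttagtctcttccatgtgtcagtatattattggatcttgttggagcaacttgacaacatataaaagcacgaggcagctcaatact
IAA19: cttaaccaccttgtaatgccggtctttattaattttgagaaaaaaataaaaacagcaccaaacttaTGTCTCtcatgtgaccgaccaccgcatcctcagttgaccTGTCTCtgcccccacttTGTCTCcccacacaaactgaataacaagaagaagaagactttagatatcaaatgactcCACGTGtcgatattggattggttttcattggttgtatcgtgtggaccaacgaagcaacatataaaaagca
The IAA6 window holds 1 TGTCTC, at position -179 relative to the gene start, and the IAA19 window holds 3, at positions -184, -145 and -128, with the G-box at -70.

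An ungapped stretch of 82 bases is 84.1% identical between these windows (69 of 82 bases). Scored with 1 for a match and -2 for a mismatch, it ranked 1 among the 946 pairs of promoter windows of the 44 genes. It begins at position -189 in IAA6 and -194 in IAA19, and capitals here mark the bases that differ.
IAA6: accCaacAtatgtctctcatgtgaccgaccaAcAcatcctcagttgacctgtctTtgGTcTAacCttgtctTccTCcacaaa
IAA19: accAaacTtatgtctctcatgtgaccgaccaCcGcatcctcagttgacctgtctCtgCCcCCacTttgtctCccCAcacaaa
The pairs ranked next were IAA20 with IAA30 (77 bases, 77.9% identical) and IAA12 with IAA13 (31 bases, 87.1%). On either strand, TGTCTC was found in 9 of 29 Aux/IAA windows (31.0%) and 1 of 15 ARF windows (6.67%), beside 10.9% of 27443 protein-coding genes. The genes were IAA1, IAA5, IAA6, IAA8, IAA19, IAA20, IAA30, IAA32, IAA34 and ARF3. Of these, IAA6 and IAA19 fell and ARF3 rose in all 3 genotypes, and IAA8 rose in WT. The others were called in no genotype by edgeR over all 18 libraries without a replicate block. Another form of the element, TGTCGG, was found in 6 Aux/IAA windows (20.7%), 2 ARF windows (13.3%) and 4.16% of all. Of these genes, IAA12 and IAA16 fell in all 3 genotypes and IAA27 in ahl10-1 and WT. IAA1, IAA5, IAA13, ARF7 and ARF19 were called in none by that fit. CACGTG was found in 4 Aux/IAA windows (13.8%), 0 ARF windows and 6.49% of all. IAA7 and IAA19 of these fell in all 3 genotypes, and IAA20 and IAA30 were called in none. The windows of IAA3, which fell, and IAA28, which rose, hold none of the 3 motifs. These matches are descriptions of letters and not of bound sites.

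Levels are given as reads per kilobase of gene length, scaled to library size (RPKM), computed from the deposited read counts after TMM scaling (edgeR's factors for library composition), with the SD over 3 libraries. On this per-length scale the mean levels ran from 0.116 RPKM for IAA15 to 190.0 RPKM for IAA9. IAA9, IAA16 and IAA8 were the most abundant, with means over the 18 libraries of 190.0, 189.6 and 153.0 RPKM. IAA7 averaged 99.4 RPKM and ARF2, a repressor of cell division in many organs, 92.8 RPKM, the highest ARF level. The order of IAA9 and IAA16, and of IAA7 and ARF2, depended on treatment and was not tested. Under stress IAA9 had 191.1 to 211.3 RPKM and IAA16 161.7 to 177.4 RPKM, with no overlap. In control they had 165.1 to 189.8 and 188.4 to 247.5 RPKM, which overlap. IAA7 and ARF2 had 74.4 to 87.7 and 84.8 to 104.1 RPKM under stress. In control they had 98.7 to 136.0 and 84.1 to 99.9 RPKM, and their ranges overlap at both treatments. The 10 genes of lowest mean were the 6 without the degron core, from 0.43 RPKM for IAA34 to 2.26 RPKM for IAA30, with IAA29 (1.84 RPKM), IAA6 (1.22 RPKM), IAA5 (1.17 RPKM) and IAA15. IAA15 had 72 reads over the 18 libraries, 0 to 12 in each, failed the filter on low counts and was not tested. All other 43 genes were tested.

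**Figure D1:**
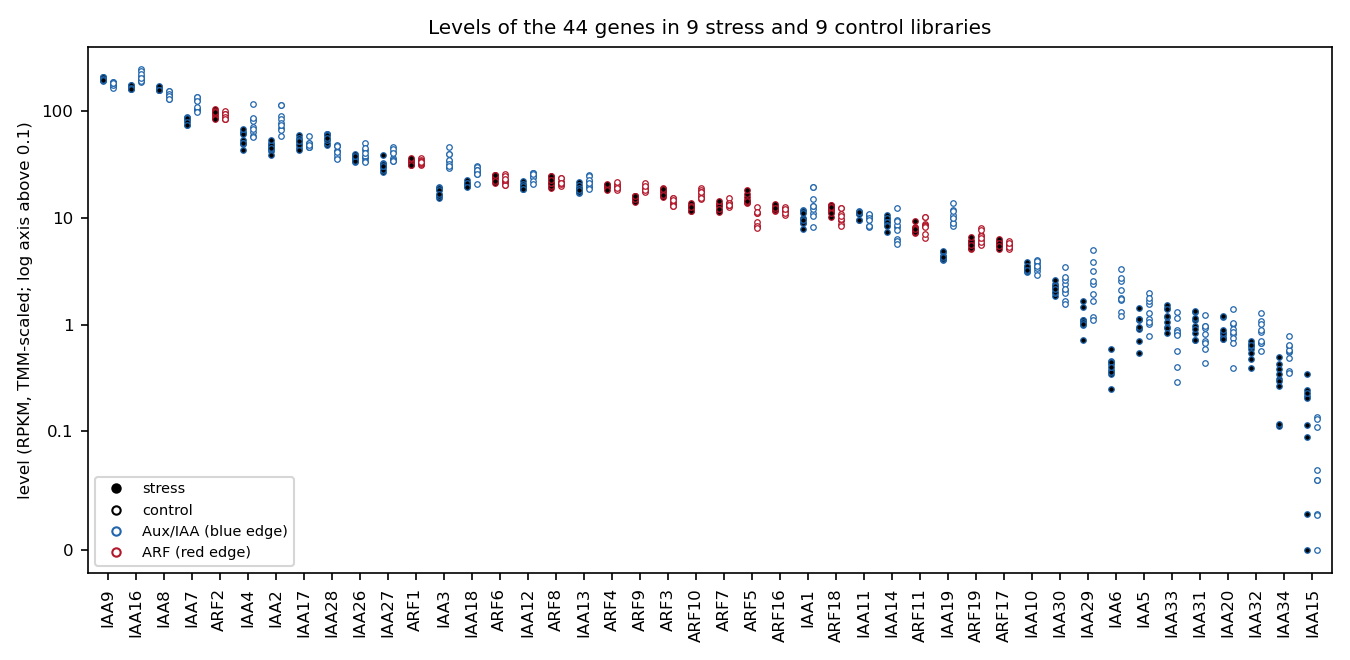
Level of each of the 44 genes in RPKM (log axis above 0.1 RPKM, linear below), ordered by the mean over 18 libraries. Filled points are the 9 stress libraries and open points the 9 control libraries, with blue edges for Aux/IAA and red edges for ARF genes. IAA9, IAA16 and IAA8 lie highest, and the points of IAA6 and IAA19 under stress lie below all their control points.

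A set of canonical Aux/IAA transcripts was lower at low water potential in each genotype, among them IAA6, IAA19, IAA3, IAA2 and IAA7, while IAA28, ARF3 and ARF5 were higher. Tests used edgeR's quasi-likelihood fit over all 22795 genes kept by the filter, with Benjamini-Hochberg adjustment. Genes whose adjusted p was under 0.05 are called higher (rose) or lower (fell). Of the 43 genes tested, 13 fell and 3 rose in ahl10-1, 10 fell and 3 rose in rrp6l1-2, and 11 fell and 4 rose in WT. Over all genes tested, 14.4% fell and 15.7% rose in ahl10-1, 14.7% and 14.9% in rrp6l1-2, and 13.4% and 12.6% in WT, so 30.1%, 29.5% and 26.1% were called in either direction. In WT the 11 that fell are 25.6% of the 43 tested and the 4 that rose are 9.3%. The median log2 fold change of the 28 Aux/IAA genes was -0.31 in ahl10-1, -0.18 in rrp6l1-2 and -0.30 in WT, beside 0.01, 0.02 and -0.00 over all genes. For the 15 ARF genes it was 0.02, 0.08 and -0.02. With the replicate number as a block, taken to pair the libraries in both mutants, 17 fell and 4 rose in ahl10-1. There IAA1, IAA13, IAA26 and IAA32 were added to the falls and IAA9 to the rises. In rrp6l1-2 11 fell and 5 rose with the block, where IAA13 was added to the falls and IAA8 and ARF18 to the rises. In WT, IAA13 was called lower by DESeq2 (adjusted p = 0.0433) and with only the groups compared (edgeR adjusted p = 0.0386). It was also called there without WT control replicate 3 (edgeR adjusted p = 0.041). Without TMM, on plain library sizes, 6 fell and 7 rose in rrp6l1-2. The calls of IAA12 in every genotype, of IAA16, ARF9 and ARF10 in rrp6l1-2, of IAA18 and IAA27 in WT and of IAA4 in ahl10-1 ended with that scaling and by limma on the deposited RPKM, which also lost IAA7 in rrp6l1-2 and IAA29 in ahl10-1. With only the groups compared in the fit, the calls of IAA12 and IAA18 in WT, IAA28 in rrp6l1-2 and IAA29 and ARF3 in ahl10-1 ended. Plain library sizes moved the median of all genes in rrp6l1-2 to 0.13 and the share of all calls that were higher to 63.0% in ahl10-1, 68.3% in rrp6l1-2 and 60.3% in WT, against 52.1%, 50.3% and 48.5% with TMM. The genotypes' stress comparisons have separate control libraries but share 1 edgeR fit. Same-numbered control libraries of rrp6l1-2 and WT also had correlated deviations from their group means. The calls of the 3 genotypes are therefore not independent of each other. Called lower in all 3 were IAA2, IAA3, IAA6, IAA7, IAA12, IAA16, IAA18, IAA19, ARF9 and ARF10, and called higher in all 3 were IAA28, ARF3 and ARF5. Over all genes, 9.27% fell and 8.94% rose in all 3 genotypes.

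**Figure D2:**
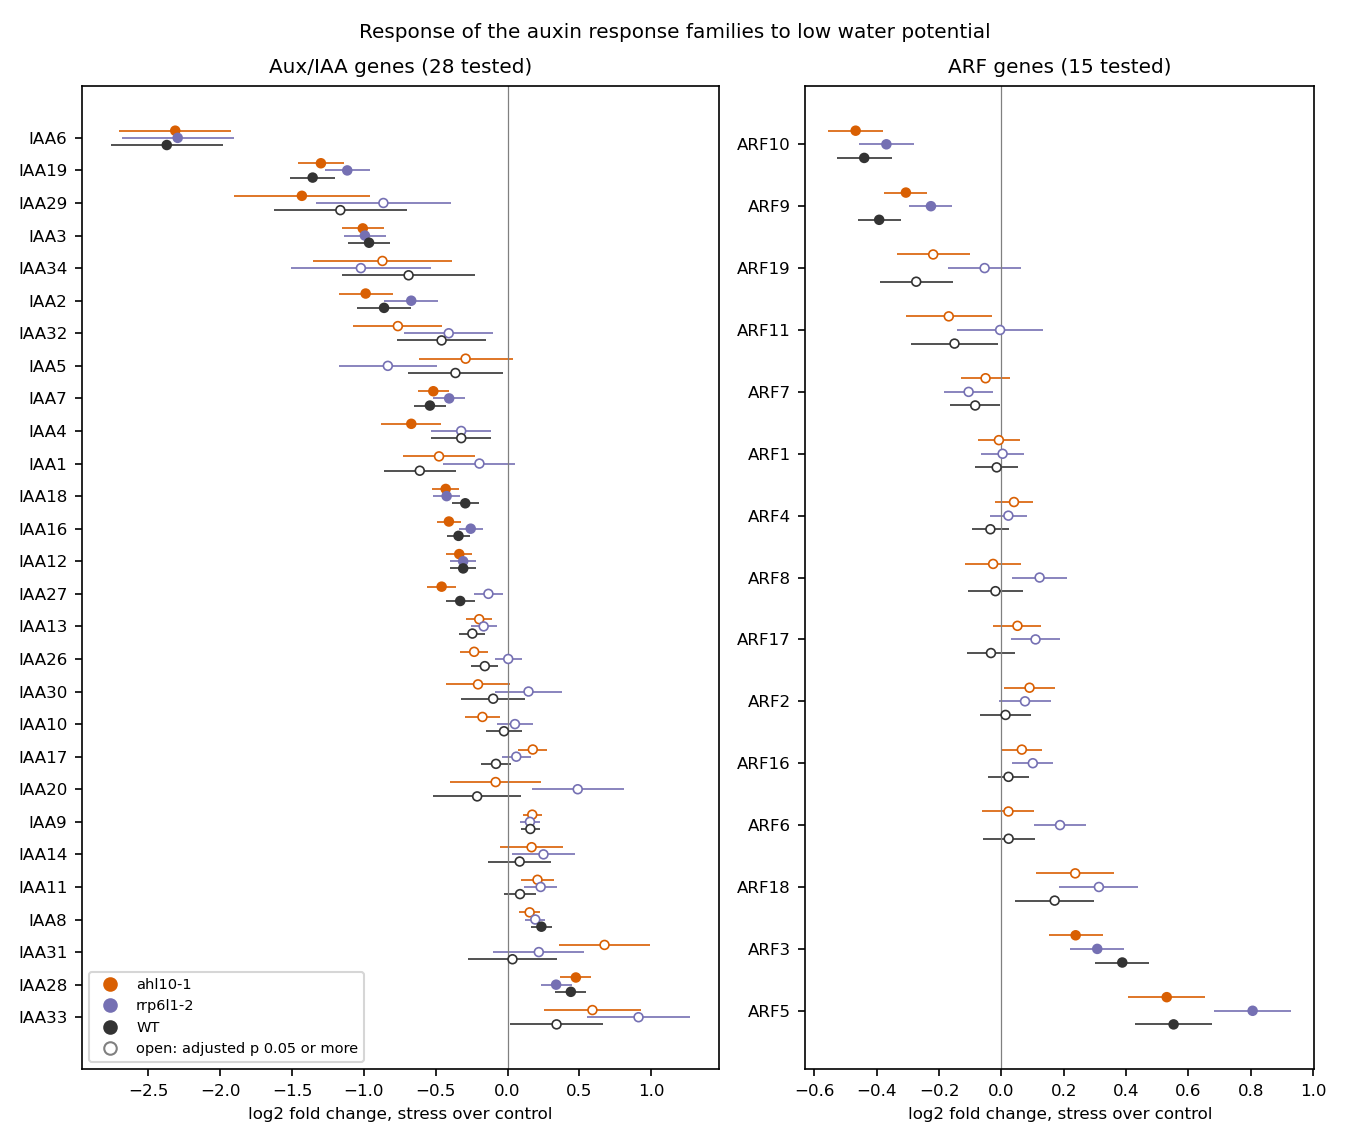
Log2 fold change of stress over control with its SE, for the 28 tested Aux/IAA genes (left) and the 15 ARF genes (right), in ahl10-1 (orange), rrp6l1-2 (purple) and WT (dark grey). Filled points were called at an adjusted p under 0.05 and open points were not. IAA6, IAA19 and IAA3 lie furthest to the left among genes called in every genotype, and ARF5 furthest to the right among the called ARF genes.

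IAA6 (AT1G52830, chr1:19672476-19673652), also known as SHY1 from light-signalling mutants, showed the largest fall. It had 0.592, 0.341 and 0.249 RPKM in ahl10-1 stress libraries, against 2.11, 1.32 and 2.54 RPKM in ahl10-1 control libraries. In rrp6l1-2 it had 0.425, 0.457 and 0.372 RPKM under stress, against 2.72, 1.77 and 1.69 RPKM in control. The WT stress libraries held 0.443, 0.356 and 0.396 RPKM, against 3.29, 1.21 and 1.72 RPKM in WT control libraries. Every stress library was below every control library of the 3 genotypes. The log2 fold change was -2.31 ± 0.39 in ahl10-1 (SE, edgeR adjusted p = 0.000338), -2.30 ± 0.389 in rrp6l1-2 (adjusted p = 0.000419) and -2.37 ± 0.388 in WT (adjusted p = 0.000307), or 4.97-fold, 4.91-fold and 5.18-fold lower. These are small counts, 12 to 34 reads in a stress library and 61 to 180 in a control library.

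IAA19 (AT3G15540, chr3:5264001-5265695), or MSG2, acts in the bending of the hypocotyl towards light and against gravity. Its stress libraries held 4.84, 4.08 and 4.18 RPKM in ahl10-1, against 11.7, 9.94 and 10.6 RPKM in control. In rrp6l1-2 the values were 4.37, 4.94 and 4.05 RPKM under stress, against 11.7, 8.96 and 8.35 RPKM in control. In WT they were 4.39, 4.09 and 4.32 RPKM under stress, against 13.9, 8.89 and 10.1 RPKM in control. The stress libraries of the 3 genotypes lay between 4.05 and 4.94 RPKM and did not overlap with the controls. IAA19 was 2.46-fold lower in ahl10-1 (edgeR adjusted p = 1.65e-05), 2.17-fold lower in rrp6l1-2 (8.23e-05) and 2.56-fold lower in WT (1.31e-05).

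IAA3 (AT1G04240, chr1:1128149-1129689), or SHY2, restrains auxin response in the root meristem, where it sets the balance with cytokinin. It had 18.8, 18.5 and 16.6 RPKM in ahl10-1 stress libraries, against 39.4, 34.3 and 34.7 RPKM in control. The rrp6l1-2 stress libraries held 19.7, 19.2 and 15.4 RPKM, against 46.0, 32.3 and 29.8 RPKM in rrp6l1-2 control libraries. Levels of 18.3, 16.1 and 16.8 RPKM were found in WT under stress, against 39.5, 29.5 and 30.8 RPKM in control. Stress values reached at most 19.7 RPKM and control values were at least 29.5 RPKM. The log2 fold changes were -1.01, -0.99 and -0.96 in ahl10-1, rrp6l1-2 and WT, each ± 0.148 (edgeR adjusted p = 0.000115, 0.000156 and 0.000195). IAA3 overlaps another annotated gene, AT1G04230, by 640 bases, and whether the authors' counting used strand is not stated, so reads of that stretch may belong to either gene.

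IAA2 (AT3G23030), an early auxin-induced gene often used as a response reporter, had 50.4, 45.1 and 42.5 RPKM in ahl10-1 stress libraries, against 113.8, 70.1 and 89.7 RPKM in control. Levels of 48.2, 44.4 and 39.2 RPKM were found in rrp6l1-2 under stress, against 85.1, 57.9 and 66.8 RPKM in control. In WT it had 48.2, 53.5 and 45.6 RPKM under stress, against 114.7, 78.0 and 74.5 RPKM in control. Stress and control libraries did not overlap. The falls were 1.98-fold in ahl10-1 (edgeR adjusted p = 0.00107), 1.59-fold in rrp6l1-2 (0.0146) and 1.81-fold in WT (0.00334). The rrp6l1-2 call was lost without control replicate 1 (adjusted p = 0.0723) and without stress replicate 3 (0.057).

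IAA7 (AT3G23050), or AXR2, is known from a dominant mutant with agravitropic roots and a dwarf shoot. It had 82.4, 86.8 and 87.7 RPKM in ahl10-1 stress libraries, against 136.0, 104.0 and 127.5 RPKM in control. In rrp6l1-2 it had 86.7, 86.5 and 85.9 RPKM under stress, against 136.0, 103.9 and 103.7 RPKM in control. The WT stress libraries held 74.4, 79.2 and 75.0 RPKM, against 123.7, 110.1 and 98.7 RPKM in WT control libraries. The stress libraries were tightly grouped and the control libraries spread, with no overlap. The falls were 1.43-fold, 1.33-fold and 1.45-fold in ahl10-1, rrp6l1-2 and WT (edgeR adjusted p = 0.00223, 0.0116 and 0.00186), and the rrp6l1-2 call was lost without control replicate 1 (0.0713).

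Smaller falls were called in all 3 genotypes for IAA16, IAA18 and IAA12. IAA16 had 164.7, 169.6 and 177.4 RPKM in ahl10-1 stress libraries, against 247.5, 196.0 and 235.8 RPKM in control. Values of 169.8, 161.7 and 175.3 RPKM were found in rrp6l1-2 under stress, against 215.0, 188.4 and 202.2 RPKM in control. Its WT stress libraries had 163.1, 163.3 and 162.6 RPKM, against 222.0, 192.6 and 205.2 RPKM in WT control libraries. Stress and control libraries did not overlap in any genotype, and the WT stress libraries differed by under 1 RPKM. Its log2 fold change was -0.41 in ahl10-1, -0.26 in rrp6l1-2 and -0.34 in WT (edgeR adjusted p = 0.00157, 0.0293 and 0.0064). The rrp6l1-2 call ended when any of 4 of its 6 libraries was left out, with an adjusted p of 0.114 without control replicate 1, 0.0651 without control replicate 3, 0.0557 without stress replicate 1 and 0.102 without stress replicate 2.

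IAA18 had 20.8, 20.7 and 21.2 RPKM in ahl10-1 stress libraries, against 27.7, 26.4 and 30.5 RPKM in control. The rrp6l1-2 stress libraries held 22.7, 19.95 and 19.7 RPKM, against 29.8, 26.0 and 27.9 RPKM in rrp6l1-2 control libraries. Levels of 19.95, 21.4 and 19.5 RPKM were found in WT under stress, against 28.2, 25.9 and 20.6 RPKM in control, and these overlap. The log2 fold changes were -0.43, -0.42 and -0.29 (edgeR adjusted p = 0.00292, 0.00369 and 0.0316), and the WT call ended without control replicate 1 (0.179), control replicate 2 (0.0928), stress replicate 1 (0.104) or stress replicate 3 (0.0999).

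IAA12, or BDL, is the partner of ARF5 in forming the embryonic root. It had 19.2, 22.2 and 18.8 RPKM in ahl10-1 stress libraries, against 25.3, 26.4 and 24.2 RPKM in control. Levels of 19.8, 20.2 and 18.8 RPKM were found in rrp6l1-2 under stress, against 26.4, 24.2 and 22.3 RPKM in control. In WT the stress libraries ran from 18.5 to 20.9 RPKM, with a mean of 19.8 RPKM, against 26.6, 26.0 and 21.0 RPKM in control. No stress library reached its own genotype's controls, and the log2 fold changes were -0.34, -0.31 and -0.31 (edgeR adjusted p = 0.0107, 0.0184 and 0.0197). The rrp6l1-2 call ended without control replicate 1 (0.084) or stress replicate 3 (0.0517), and the WT call without control replicate 1 (0.0977), control replicate 2 (0.0709) or stress replicate 3 (0.0763).

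In edgeR's fit over all 18 libraries without the block, IAA29, IAA4 and IAA27 were called lower in some genotypes only. The difference between genotypes missed the threshold for each of them. IAA29, which is induced by the PIF factors of light and shade signalling, had 1.09, 1.08 and 0.990 RPKM in ahl10-1 stress libraries, against 4.96, 1.17 and 2.40 RPKM in control. In rrp6l1-2 it had 1.46, 1.10 and 0.722 RPKM under stress, against 3.21, 1.66 and 1.11 RPKM in control. The WT stress libraries held 1.06, 1.67 and 1.01 RPKM, against 3.85, 2.58 and 1.95 RPKM in WT control libraries. Control replicate 1 was the highest library in each genotype. The log2 fold change was -1.43 ± 0.471 in ahl10-1 (edgeR adjusted p = 0.0311), -0.86 ± 0.472 in rrp6l1-2 (0.182) and -1.16 ± 0.465 in WT (0.0773). In WT, IAA29 was called lower by DESeq2 (adjusted p = 0.0391). The same held with the replicate block (edgeR adjusted p = 0.0407) and with only the groups compared (0.0257), and the other alternatives did not call it there. The authors' deposited table for WT stress also has it lower (authors' adjusted p = 0.00165). Without ahl10-1 control replicate 1 the ahl10-1 value was -0.76 (adjusted p = 0.207), and without any 1 of the 3 ahl10-1 stress libraries the adjusted p was 0.0734, 0.077 and 0.0783.

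IAA4, also induced early by auxin, had 62.7, 53.4 and 49.5 RPKM in ahl10-1 stress libraries, against 115.7, 63.8 and 84.1 RPKM in control. The rrp6l1-2 stress libraries held 63.8, 50.1 and 43.2 RPKM, against 81.1, 57.9 and 57.5 RPKM in rrp6l1-2 control libraries. Levels of 61.3, 68.6 and 50.8 RPKM were found in WT under stress, against 86.6, 71.7 and 67.5 RPKM in control. The groups overlap in rrp6l1-2 and WT. The log2 fold change was -0.67 in ahl10-1 (edgeR adjusted p = 0.0247), and -0.32 in both rrp6l1-2 (0.26) and WT (0.278). Without ahl10-1 control replicate 1 the ahl10-1 value was -0.43 (adjusted p = 0.124), and the call was also lost without stress replicate 2 (0.0712) or stress replicate 3 (0.082).

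IAA27 had 30.0, 27.1 and 28.0 RPKM in ahl10-1 stress libraries, against 46.6, 34.2 and 36.2 RPKM in control. Levels of 31.0, 31.0 and 32.9 RPKM were found in rrp6l1-2 under stress, against 35.0, 35.0 and 34.0 RPKM in control. In WT it had 32.2, 30.3 and 38.6 RPKM under stress, against 41.8, 44.4 and 41.0 RPKM in control. Stress and control libraries did not overlap in any genotype. The log2 fold change was -0.46 in ahl10-1 (edgeR adjusted p = 0.00267), -0.13 in rrp6l1-2 (0.337) and -0.33 in WT (0.0229). The WT call ended without control replicate 1 (0.0508), control replicate 2 (0.0763), stress replicate 1 (0.0969) or stress replicate 2 (0.107). IAA27 overlaps AT4G29070 by 41 bases, and in all 13 of the 44 members overlap another annotated locus. Beside IAA3, the longest overlaps were 1176 bases for IAA13, 826 for IAA32, 619 for IAA10, 254 for ARF7 and 156 for IAA34. The loci overlapping IAA32, IAA34 and ARF7 had 12037, 35006 and 541302 reads in all, against 711, 270 and 65020 for these members. That of IAA13 had 24. Reads of such stretches may belong to either gene, as for IAA3.

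IAA28 (AT5G25890, chr5:9033204-9035140) was higher under stress. It is known from a dominant mutant with few lateral roots and is transcribed mainly in roots and stems. It had 60.9, 54.5 and 48.0 RPKM in ahl10-1 stress libraries, against 36.3, 42.0 and 39.3 RPKM in control. In rrp6l1-2 it had 50.7, 54.3 and 60.6 RPKM under stress, against 35.9, 47.2 and 48.0 RPKM in control. The WT stress libraries held 61.3, 59.3 and 56.5 RPKM, against 42.5, 41.2 and 46.8 RPKM in WT control libraries. Stress libraries were above the control libraries of their genotype in every case. The rises were 1.39-fold, 1.26-fold and 1.36-fold (edgeR adjusted p = 0.00352, 0.0274 and 0.00669), and the rrp6l1-2 call ended without control replicate 1 (0.131), stress replicate 2 (0.0539) or stress replicate 3 (0.153).

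**Figure D3:**
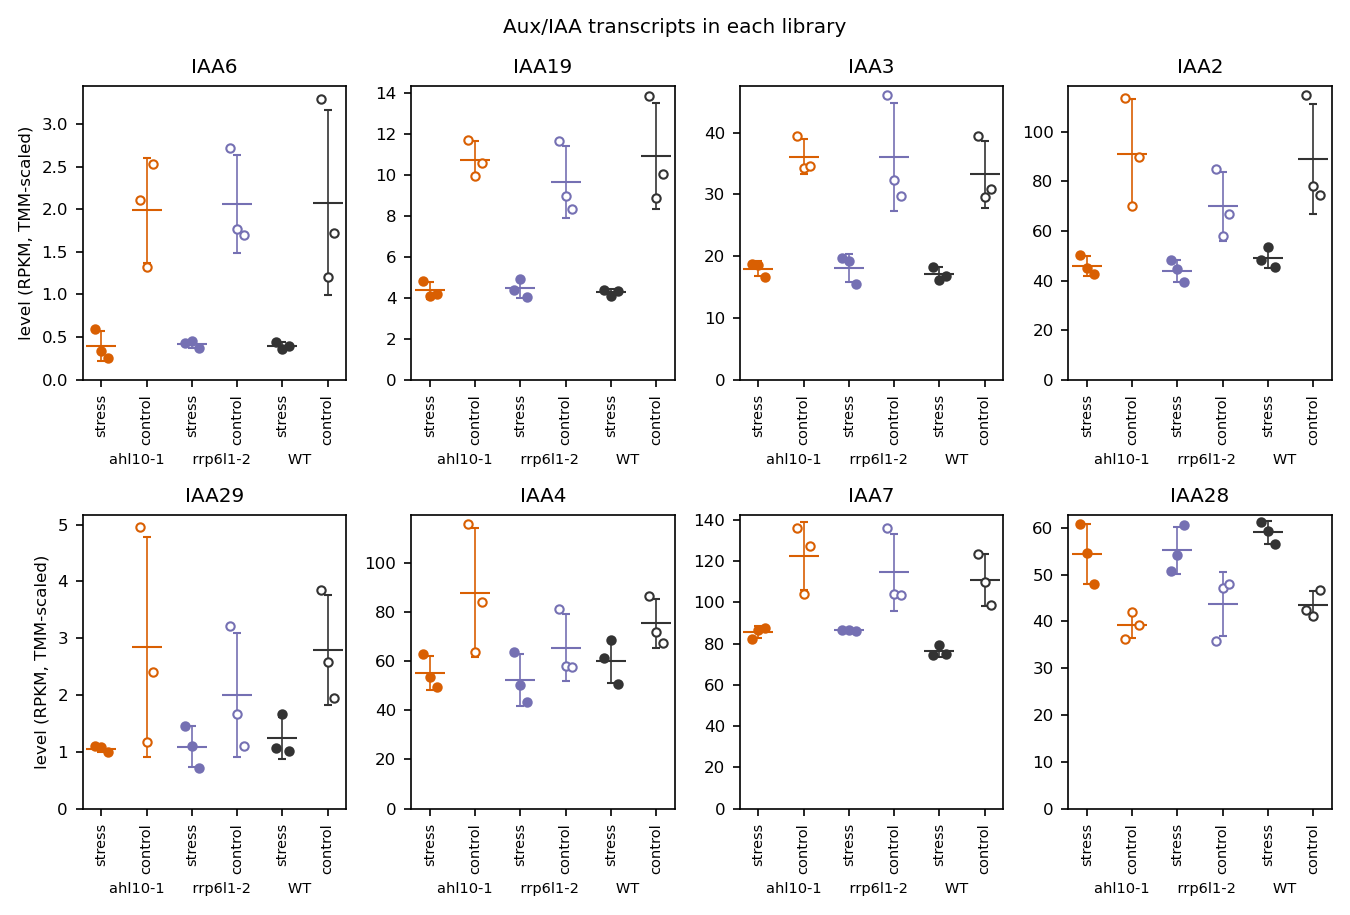
Level in RPKM of 8 Aux/IAA genes in every library, with stress (filled) left of control (open) for ahl10-1, rrp6l1-2 and WT. Points are replicates 1, 2 and 3 from left to right, and bars are the mean and SD of 3 libraries. Stress libraries of IAA6, IAA19, IAA3, IAA2 and IAA7 lie below all control libraries of their genotype, and those of IAA28 above them.

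IAA8 and IAA9, with IAA16 the most abundant Aux/IAA genes, had small positive values. IAA8 was called higher in WT, with 170.8, 159.7 and 158.9 RPKM under stress, against 144.9, 139.6 and 131.2 RPKM in control (log2 fold change 0.24, edgeR adjusted p = 0.0221). This call was lost without WT stress replicate 1 (0.0684) or control replicate 3 (0.0806), and the values in ahl10-1 and rrp6l1-2 were 0.15 and 0.19 (0.116 and 0.0513). In rrp6l1-2 IAA8 was called higher by DESeq2 (adjusted p = 0.0242), with the replicate block (edgeR adjusted p = 0.0268) and on plain library sizes (0.0151). The same held by limma, and in edgeR without rrp6l1-2 control replicate 1 (adjusted p = 0.0194). IAA9 was at 0.17, 0.16 and 0.16 (adjusted p = 0.0624, 0.0891 and 0.0919) and was not called by edgeR, and its stress libraries lay above the control libraries in each genotype. With the replicate block IAA9 was called higher in ahl10-1 (log2 fold change 0.17, edgeR adjusted p = 0.0408), and DESeq2 called it higher in ahl10-1, rrp6l1-2 and WT (adjusted p = 0.0189, 0.0411 and 0.0178). Over all genes tested, stress and control libraries did not overlap for 40.1% in ahl10-1, 44.7% in rrp6l1-2 and 43.2% in WT.

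The sum of all Aux/IAA levels was 1023 ± 26.9 RPKM under stress and 1195 ± 127 RPKM in control in ahl10-1, 1005 ± 18.0 and 1092 ± 86.8 RPKM in rrp6l1-2, and 1019 ± 31.4 and 1151 ± 77.7 RPKM in WT (SD, n = 3 each). IAA16, IAA9 and IAA8 together made up 50.9% to 54.0% of it under stress and 44.6% to 48.0% in control in ahl10-1, 51.6% to 53.8% and 45.7% to 49.5% in rrp6l1-2, and 50.8% to 52.7% and 43.9% to 47.3% in WT. The share did not overlap between treatments in any genotype.

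The 6 Aux/IAA genes without the degron core had 0 calls in each genotype by edgeR over all 18 libraries without the block, and by DESeq2. At an unadjusted edgeR p under 0.05 there were 2 in ahl10-1, 1 in rrp6l1-2 and 0 in WT. Their log2 fold changes ran from -1.02 (IAA34 in rrp6l1-2) to 0.91 (IAA33 in rrp6l1-2), with SEs of up to 0.488, on levels near or below 2.6 RPKM under stress. IAA32 was called lower in ahl10-1 with the replicate block and without control replicate 3 (edgeR adjusted p = 0.0321 and 0.0494). IAA33 was called higher in rrp6l1-2 by limma on the deposited RPKM. It was also called without rrp6l1-2 control replicate 2 (log2 fold change 1.47, edgeR adjusted p = 0.00837). IAA32 and IAA34 overlap other annotated loci, as given above. In all, 15 of the 28 tested Aux/IAA genes were called in no genotype by edgeR without the block.

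A further feature is position, since 3 pairs of Aux/IAA genes lie close to each other in the genome with 1 annotated locus between them, and they did not all move together. IAA3 lies 6388 bases from IAA17 on chromosome 1. IAA17, or AXR3, had log2 fold changes of 0.18, 0.06 and -0.08 in ahl10-1, rrp6l1-2 and WT (edgeR adjusted p = 0.213, 0.693 and 0.604). IAA2 and IAA7, 12510 bases apart on chromosome 3, both fell in all genotypes. IAA14, a repressor of lateral root initiation, and IAA1 lie 10732 bases apart on chromosome 4 and were not called by edgeR without the block, IAA14 at 0.17, 0.25 and 0.08 and IAA1 at -0.48, -0.20 and -0.61. With the replicate block IAA1 was called lower in ahl10-1 (-0.44, edgeR adjusted p = 0.0162). In WT, IAA1 was called by DESeq2 (adjusted p = 0.0482) and with only the groups compared (edgeR adjusted p = 0.0382).

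Among the ARF genes, ARF3, ARF5, ARF9 and ARF10 were called in each genotype. These are 4 of 15 (26.7%), near the 30.1%, 29.5% and 26.1% of all genes called in ahl10-1, rrp6l1-2 and WT. ARF5 (AT1G19850, chr1:6886669-6891404), or MONOPTEROS, activates genes of vascular and embryonic root formation. It had 14.2, 13.8 and 14.4 RPKM in ahl10-1 stress libraries, against 12.6, 8.38 and 8.34 RPKM in control. The rrp6l1-2 stress libraries held 14.8, 14.1 and 15.8 RPKM, against 9.06, 8.48 and 8.02 RPKM in rrp6l1-2 control libraries. Levels of 16.7, 14.5 and 18.4 RPKM were found in WT under stress, against 11.2, 11.1 and 11.4 RPKM in control. No control library reached the stress libraries. The log2 fold changes were 0.53 ± 0.123, 0.81 ± 0.124 and 0.55 ± 0.123 (edgeR adjusted p = 0.00403, 0.000183 and 0.00345), and this call held when each library was left out in turn. The other activators, ARF6, ARF7, ARF8 and ARF19, were not called. ARF6 was called higher in rrp6l1-2 on plain library sizes, by limma and with only the groups compared, and ARF19 lower in ahl10-1 without control replicate 2 and in WT without stress replicate 3.

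ARF3 (AT2G33860), or ETTIN, patterns the gynoecium and the lower side of leaves. It had 16.3, 15.6 and 19.2 RPKM in ahl10-1 stress libraries, against 15.5, 13.6 and 14.2 RPKM in control. Levels of 17.6, 16.4 and 17.9 RPKM were found in rrp6l1-2 under stress, against 13.0, 13.6 and 15.3 RPKM in control. In WT it had 18.0, 16.6 and 18.6 RPKM under stress, against 13.1, 14.6 and 12.8 RPKM in control. The ahl10-1 groups nearly touch. The log2 fold changes were 0.24, 0.31 and 0.39 (edgeR adjusted p = 0.047, 0.0141 and 0.00344). The ahl10-1 call was lost without stress replicate 1 (0.0734) or 3 (0.226) and without control replicate 2 (0.17) or 3 (0.125), by DESeq2 (0.0547), with DESeq2's size factors in edgeR and with no filter on low counts. The rrp6l1-2 call was lost without control replicate 1 (0.0626) or 2 (0.0577) and without stress replicate 1 (0.0532) or 3 (0.0672).

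ARF9 (AT4G23980) belongs to the ARFs held to be repressors. It had 16.1, 14.8 and 14.4 RPKM in ahl10-1 stress libraries, against 19.6, 18.0 and 18.4 RPKM in control. In rrp6l1-2 it had 15.9, 16.2 and 15.5 RPKM under stress, against 18.2, 17.4 and 20.02 RPKM in control. The WT stress libraries held 14.2, 15.1 and 15.9 RPKM, against 21.1, 18.3 and 19.97 RPKM in WT control libraries. Stress libraries lay between 14.2 and 16.2 RPKM and control libraries between 17.4 and 21.1 RPKM. The falls were 1.24-fold, 1.17-fold and 1.31-fold (edgeR adjusted p = 0.00321, 0.0217 and 0.000556), and the rrp6l1-2 call ended without control replicate 3 (0.106) or stress replicate 3 (0.063).

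ARF10 (AT2G28350, chr2:12113889-12116957) acts with ARF16 in the root cap and during germination. It had 12.8, 12.8 and 12.3 RPKM in ahl10-1 stress libraries, against 18.97, 17.6 and 15.8 RPKM in control. The rrp6l1-2 stress libraries held 13.1, 11.6 and 13.9 RPKM, against 18.4, 16.4 and 15.04 RPKM in rrp6l1-2 control libraries. Levels of 13.0, 11.6 and 12.6 RPKM were found in WT under stress, against 17.6, 17.3 and 15.5 RPKM in control. No stress library overlapped with a control library. The falls were 1.38-fold, 1.29-fold and 1.36-fold (edgeR adjusted p = 0.000818, 0.00525 and 0.00153).

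**Figure D4:**
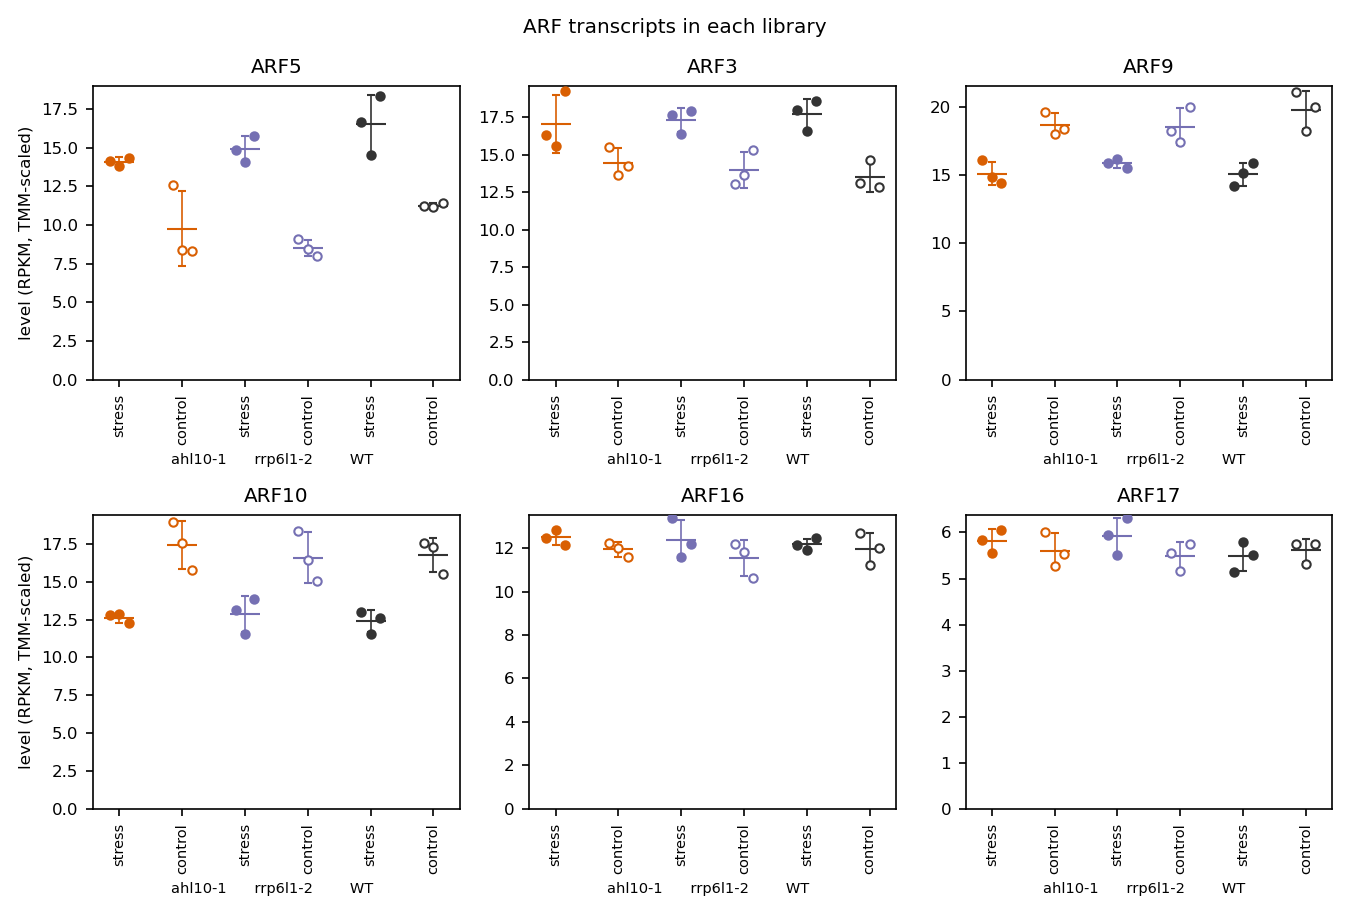
Level in RPKM of 6 ARF genes in every library, with stress (filled) left of control (open) for ahl10-1, rrp6l1-2 and WT. Points are replicates 1, 2 and 3 from left to right, and bars are the mean and SD of 3 libraries. ARF5 and ARF3 are higher and ARF9 and ARF10 lower under stress, while the groups of ARF16 and ARF17 overlap.

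ARF10, ARF16 and ARF17 are the targets of the microRNA miR160, which cuts their transcripts. The mature sequence from its MIR160A locus is shown with its seed in capitals, in DNA letters, and below it the best matching site in each ARF transcript, with capitals for bases that differ from the reverse complement of the microRNA.
miR160a-5p: tGCCTGGCtccctgtatgcca
ARF10: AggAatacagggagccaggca
ARF16: GggTTtacagggagccaggca
ARF17: tggcatGcagggagccaggca
The sites have 2, 3 and 1 mismatches and lie at chr2:12115741-12115761 (plus strand), chr4:14704141-14704161 (minus) and chr1:29274189-29274209 (plus) of TAIR10.1. All 3 share the bases that pair with the seed. Their transcripts did not move alike. ARF16 had log2 fold changes of 0.07, 0.10 and 0.02 in ahl10-1, rrp6l1-2 and WT (edgeR adjusted p = 0.492, 0.267 and 0.836) and ARF17 of 0.05, 0.11 and -0.03 (0.654, 0.303 and 0.789). Poly(A) libraries measure precursors of microRNAs and not mature microRNAs, and the MIR160A precursor was covered by 2 to 15 reads a library and not called.

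ARF6 and ARF8 are the targets of miR167, and miR167a-5p, miR167b and miR167d share the seed GAAGCTG, while that of miR167c-5p is AAGCTGC.
miR167a-5p: tGAAGCTGccagcatgatcta
miR167d: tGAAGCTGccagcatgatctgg
ARF6: GagatcaGgctggcagcttGT
ARF8: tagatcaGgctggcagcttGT
Against miR167a-5p these sites have 4 and 3 mismatches, at chr1:10686478-10686498 (minus strand) and chr5:14633841-14633861 (plus). The MIR167D precursor had 2.57 ± 0.255 RPKM under stress and 1.72 ± 0.379 RPKM in control in ahl10-1, 2.73 ± 0.305 and 1.75 ± 0.644 RPKM in rrp6l1-2, and 2.55 ± 0.218 and 1.62 ± 0.122 RPKM in WT (SD, n = 3 each). It was called higher in rrp6l1-2 and WT (edgeR adjusted p = 0.0318 and 0.0311) and missed the threshold in ahl10-1 (0.0504). Of 10 listed small RNA genes 7 were tested, and no other of them rose in any genotype. MIR167D is thus 14.3% of those tested in rrp6l1-2 and in WT, near the 14.9% and 12.6% of all genes that rose there. Neither ARF6 nor ARF8 was called by edgeR with TMM scaling over all 18 libraries. ARF2, ARF3 and ARF4 are targets of the TAS3 small RNAs. The TAS3A precursor fell in rrp6l1-2 (log2 fold change -0.27, edgeR adjusted p = 0.0176) and was at -0.15 in ahl10-1 (0.155) and 0.07 in WT (0.538), while ARF2 and ARF4 were called in none.

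The rest of the pathway was described by lists. Of 6 TIR1/AFB receptor genes, 1 fell in each genotype (16.7%) and the other 5 were not called, beside 14.4%, 14.7% and 13.4% of all genes that fell in ahl10-1, rrp6l1-2 and WT, so the share is near the background. That gene, AFB2, had 27.4 ± 0.98 RPKM under stress and 32.8 ± 2.81 RPKM in control in ahl10-1, 28.9 ± 0.721 and 34.1 ± 3.14 RPKM in rrp6l1-2, and 28.8 ± 0.451 and 33.7 ± 1.12 RPKM in WT (SD, n = 3 each), with edgeR adjusted p = 0.0105, 0.0178 and 0.0247. Of 5 co-repressor genes, TPR4 rose in ahl10-1 and WT (log2 fold change 0.27 and 0.24, edgeR adjusted p = 0.00755 and 0.0177) and was at 0.14 in rrp6l1-2 (0.126). Of 6 genes of the SCF ligase and its RUB modification, AXR1 rose in all 3 genotypes (0.14, 0.16 and 0.15), RBX1 in ahl10-1 (0.16) and CUL1 in WT (0.15). Over all genes, 15.7%, 14.9% and 12.6% rose in ahl10-1, rrp6l1-2 and WT.

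Early auxin-induced genes outside the families were taken next, read against the 14.4%, 14.7% and 13.4% of all genes that fell in ahl10-1, rrp6l1-2 and WT. Of 8 GH3 genes, which conjugate auxin and other hormones to amino acids, 7 were tested and 0 called by edgeR in any genotype, with 3, 0 and 0 at an unadjusted p under 0.05 in ahl10-1, rrp6l1-2 and WT and medians of -0.41, -0.15 and -0.42. Of 11 SAUR genes, which promote cell expansion, 4 fell in ahl10-1 (36.4%), 1 in rrp6l1-2 and 1 in WT (9.09% each), and 0 rose. SAUR16 was at -0.56, -0.72 and -0.19 (edgeR adjusted p = 0.00368, 0.000711 and 0.311), and SAUR15 at -1.03, -0.72 and -0.96 (0.0163, 0.0875 and 0.027). Of 4 LBD genes of lateral root formation, LBD29 fell in WT (-1.72, edgeR adjusted p = 0.00763), on 6 to 12 reads in a stress library. Of the 8 ARF genes of the ARF12 to ARF15 and ARF20 to ARF23 set, 2 were tested and 0 called, with 0 at an unadjusted p under 0.05.

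Some organ markers were called between treatments in these whole-seedling libraries, and most were not. The summed level of 12 root markers was 76.1 to 87.7 RPKM under stress and 48.6 to 66.2 RPKM in control in ahl10-1, 69.9 to 101.8 and 41.6 to 76.2 RPKM in rrp6l1-2, and 74.5 to 85.3 and 43.2 to 85.3 RPKM in WT. The sums overlap between treatments in rrp6l1-2 and WT. Of the 12, 5, 4 and 3 rose in ahl10-1, rrp6l1-2 and WT (41.7%, 33.3% and 25.0%, beside 15.7%, 14.9% and 12.6% of all genes), and 0 fell. The sum of 10 shoot markers was 6960 to 11240 RPKM under stress and 8064 to 12860 RPKM in control in ahl10-1, 8172 to 10070 and 10680 to 13840 RPKM in rrp6l1-2, and 7607 to 8148 and 7808 to 10410 RPKM in WT, and overlaps in ahl10-1 and WT. The sum without the abundant RBCS1A and LHCB2.1 was 55.3 to 80.7 RPKM under stress and 86.7 to 95.8 RPKM in control in ahl10-1, 67.5 to 71.5 and 80.9 to 94.97 RPKM in rrp6l1-2, and 65.8 to 72.3 and 78.2 to 94.6 RPKM in WT. These smaller sums do not overlap. Of the 10, 3, 2 and 2 fell, beside 14.4%, 14.7% and 13.4% of all genes, the guard-cell genes MYB60 and KAT1 in every genotype, and 0 rose. Pollen markers were at or near 0 (up to 0.0266 RPKM). Their part in the Aux/IAA and ARF results was not tested, and in whole seedlings fewer cells of a type and less RNA per cell cannot be told apart.

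Replicate 1 of the control groups was often the highest library for the canonical Aux/IAA genes and for the ARF genes. For canonical Aux/IAA genes this held for 15 of 22 in ahl10-1 control, 20 of 22 in rrp6l1-2 control and 16 of 22 in WT control. These are 68.2%, 90.9% and 72.7%, beside 39.2%, 36.0% and 34.0% of all genes tested. In the stress groups it held for 14 of 22, 10 of 22 and 11 of 22 in ahl10-1, rrp6l1-2 and WT, beside 34.7%, 36.5% and 32.0% of all genes. Of the 15 ARF genes, replicate 1 was highest for 80.0%, 66.7% and 53.3% in ahl10-1, rrp6l1-2 and WT control. Under stress the ARF shares were 6.67%, 46.7% and 6.67%. Calls lost without a control replicate 1 are named with each gene above.

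The mutants were then compared with WT at each treatment. The labels were checked first by the disrupted genes. AHL10 had 10.8 to 16.8 RPKM in the 6 ahl10-1 libraries, against 19.02 to 33.3 RPKM in the 12 others. RRP6L1 had 1.59 to 3.89 RPKM in the 6 rrp6l1-2 libraries, against 10.7 to 12.7 RPKM in the 12 others. Both were called lower in their mutant at both treatments.

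No Aux/IAA or ARF gene was called in either mutant at either treatment. By edgeR 0 of 43 were called in ahl10-1 against WT in control (0.0263% of all genes) and under stress (0.0351%), and in rrp6l1-2 against WT in control (0.211%) and under stress (0.0834%). DESeq2 and limma also called 0 in each. At an unadjusted p under 0.05 there were 0 and 1 in ahl10-1 and 7 and 0 in rrp6l1-2, in control and under stress. The smallest adjusted p was 0.796 in ahl10-1 control, 0.996 in ahl10-1 stress, 0.142 in rrp6l1-2 control and 1.0 in rrp6l1-2 stress.

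The 7 in rrp6l1-2 control were all lower, and they were ARF5, IAA26, IAA33, IAA27, IAA13, IAA20 and ARF19. ARF5 had 9.06, 8.48 and 8.02 RPKM in rrp6l1-2 control libraries, against 11.2, 11.1 and 11.4 RPKM in WT control libraries, with no overlap. Its log2 fold change was -0.40 ± 0.123 (edgeR adjusted p = 0.142). Under stress ARF5 had 14.8, 14.1 and 15.8 RPKM in rrp6l1-2 libraries, against 16.7, 14.5 and 18.4 RPKM in WT libraries, which overlap (-0.15). IAA26, a repressor with links to virus infection, was at -0.30 ± 0.095 and IAA27 at -0.29 ± 0.1 in rrp6l1-2 control, with no overlap between the libraries for either. Libraries did not overlap for 21.9% of all genes in that comparison. The authors' deposited table for rrp6l1-2 and WT in control has 893 genes under its adjusted p of 0.05, and 3 are members, with log2 fold changes of -0.37 for ARF5, -0.27 for IAA27 and -0.27 for IAA26. In the authors' deposited tables for the other 3 mutant comparisons 0 members were called, of 18, 85 and 282 genes. In the authors' deposited table for WT stress 18 members were called, 13 lower and 5 higher. They include IAA1 (-0.57, authors' adjusted p = 0.00469), IAA13 (-0.24, 0.0228) and IAA29 (-0.96, 0.00165), lower, and IAA9 (0.16, 0.0489), higher. These were not called in WT by edgeR over all 18 libraries without the block. IAA18, called lower in WT by that fit, was not called in the authors' table (-0.28, authors' adjusted p = 0.0616). The 1 gene at an unadjusted p under 0.05 in ahl10-1 under stress was IAA27, with 30.0, 27.1 and 28.0 RPKM in ahl10-1 libraries, against 32.2, 30.3 and 38.6 RPKM in WT libraries (-0.25 ± 0.1, edgeR adjusted p = 0.996).

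**Figure D5:**
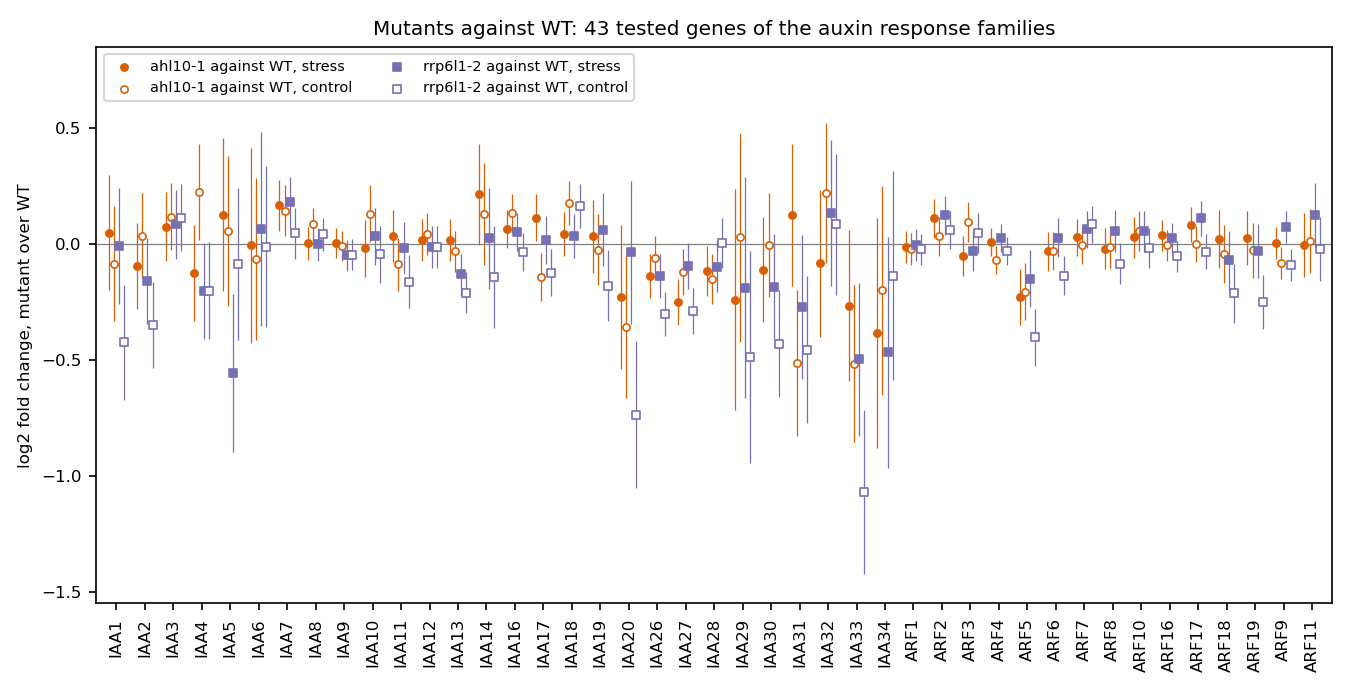
Log2 fold change of mutant over WT with its SE for the 43 tested genes, for ahl10-1 (orange circles) and rrp6l1-2 (purple squares), under stress (filled) and in control (open). None of the points was called, and the points furthest from 0 are IAA33 and IAA20 in rrp6l1-2 control, both genes of low level.

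The stress response of the members was also compared between genotypes as an interaction. By edgeR 0 of 43 genes, and 0% of all genes, were called for ahl10-1 and for rrp6l1-2, with 0 members at an unadjusted p under 0.05 in either, and DESeq2 called 0 members. For ahl10-1 the difference of log2 fold changes from WT ran from -0.35 (IAA4) to 0.64 (IAA31), with a smallest unadjusted edgeR p of 0.0951 (IAA17). For rrp6l1-2 it ran from -0.47 (IAA5) to 0.70 (IAA20), with a smallest of 0.107 (ARF9). Calls that 1 genotype has and another lacks, such as those of IAA4, IAA8, IAA27 and IAA29, are therefore not shown to differ between genotypes.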

How the data were processed

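Poly(A) RNA from whole seedlings was sequenced in 18 libraries, 3 in each of 6 groups, and groups were taken from the sample titles. Per the labels' protocols the kit marks the strand. The submitters' processing notes list the build TAIR10 and, with no role, Bowtie2, DESeq2, CASAVA and bcl2fastq 1.8.4. Which tool counted the reads, and whether by strand, is not given in the sources used here. Each table covers 33602 loci. The deposited expected counts are, per the file headers, reads per gene. The deposited RPKM and, as other values, gene lengths stand beside them. The deposited fraction of multi-mapped reads was at most 0.0029 for any member. Between 3.92% and 4.56% of the genes had counts that were not whole. The authors' deposited comparison tables hold, per the file headers, a mean signal, a log2 fold change, its standard error and test statistic as scores, and p-values. 

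Rounded expected counts entered edgeR 4.0.16 under R 4.3.3 (robust glmQLFit, TMM factors of 0.901 to 1.072, filterByExpr, 22795 genes, 6 group means, 12 residual degrees of freedom), with Benjamini-Hochberg adjustment over all genes. The biological coefficient of variation was 14.4%. All adjusted p-values of the text are edgeR's unless another tool or the authors are named. A count of 0 allows up to 3 reads, which covers counting error only. Alternatives were DESeq2 1.42.0, limma 3.58.1 on log2(RPKM + 0.5) and log2(RPKM + 0.1) of the deposited RPKM, other scalings, no filter, only the groups compared, the replicate block, and each library left out.

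Replicate numbers recur in all groups, and the series' design text calls them independent experiments. Over 17013 genes, deviations of same-numbered libraries from their group means correlated over 0.1 in every pair for some comparisons. These were stress in ahl10-1 (0.247, 0.208 and 0.344), stress in rrp6l1-2 (0.48, 0.151 and 0.208) and rrp6l1-2 against WT in control (0.467, 0.346 and 0.181). The numbers were taken to pair the libraries there, and not in the other comparisons. For ahl10-1 against WT in control the values were 0.241, 0.389 and -0.303. Correlations between libraries of unlike number were not computed, and deviations from a shared group mean are not independent. The pairing is therefore an assumption.

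Gene names, coordinates and sequences come from the TAIR10.1 genome and its RefSeq annotation. The files carry no coordinates. Promoter windows are the 250 bases before the gene start. The members and lists were chosen with earlier results of these data known. Values of every library are printed for members called in at least 1 stress comparison with an absolute log2 fold change of at least 0.5 or among the 12 smallest p of that comparison, and for genes named in the mutant comparisons at an unadjusted p, ARF5 and IAA27, chosen after their values were seen. IAA12 in WT under stress is given by its range and mean.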

Additional observations from a re-analysis of the deposited data

How the results depend on the processing

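For the stress responses of the 43 tested members, 1806 values under alternatives were compared with those reported. Of these, 1671 kept their side of the threshold, 81 kept their direction and missed it, 54 (of 14 genes) passed it anew, and 0 called values reversed. In the stress response of rrp6l1-2, 10 members fell and 3 rose in the results as reported. With plain library sizes the counts were 6 and 7, and by limma on log2(RPKM + 0.5) and on log2(RPKM + 0.1) they were 5 and 8 each. DESeq2 called 5 higher. The cause was not tested. Leaving out 1 library gave 11 to 16 lower and 2 to 5 higher in ahl10-1, 6 to 10 lower and 1 to 4 higher in rrp6l1-2, and 8 to 12 lower and 3 to 4 higher in WT. The 5 in ahl10-1 came without control replicate 1, the 6 in rrp6l1-2 without control replicate 1 and the 1 without stress replicate 3.

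With the replicate block, 17 members fell and 4 rose in ahl10-1, 11 fell and 5 rose in rrp6l1-2, and 14 fell and 4 rose in WT. For stress in WT the numbers were not taken to pair the libraries. In the mutant comparisons and interactions 0 members were called with the block, and with every other alternative run. The block raised the share of all genes called in rrp6l1-2 against WT in control to 0.649%, against 0.211% without it. For rrp6l1-2 against WT in control the share was 3.6% by DESeq2, 0.145% with plain library sizes, 0.145% and 0.14% by limma with 0.5 and 0.1 added, and 0.108% with only the groups compared. DESeq2 called 0.0965% and 0.118% of all genes in ahl10-1 in control and under stress, and 0.241% in rrp6l1-2 under stress, where only the groups compared gave 0.18%. By DESeq2 the interactions had 3 genes for ahl10-1 and 1 for rrp6l1-2, none of them a member. Apart from the 5 against 3 that rose in rrp6l1-2, the block moved no count of members by more than 1.5 times. In the stress responses the widest SEs, up to 0.488 on the log2 scale, were those of IAA34, IAA29 and IAA6, all under 2 RPKM on average.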
